A study of Mus musculus with 12 samples.

Results

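The comparison is that of lymph node dendritic cells labelled p38a-knockout (KO) after 4 h with those after 2 h of Pam3CSK4, and it rests on 4 of the 12 arrays of the series. The members were chosen by their titles: KO 4 h A and B against KO 2 h A and B. The cells came from mice of the C57BL/6 strain, were cultured at 37C, and received Pam3CSK4 at 1 mg/ml as labelled. The other 8 arrays hold KO cells at 0 h, without the ligand, and cells labelled wild type (WT) of the same strain at 0, 2 and 4 h, with 2 arrays in each of the 6 groups. The question put to these 4 arrays is which transcripts raised by 2 h had decayed by 4 h, which lasted, and which came late. The sources used here do not say how the knockout was made or in which cells. Nothing in the labels says that arrays A and B came from separate animals or cultures, so p-values measure the spread between these arrays, which may be technical. No array holds untreated cells at 2 or 4 h, so the ligand and time in culture cannot be told apart.

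Pam3CSK4 is a synthetic triacylated lipopeptide recognised by TLR2 together with TLR1, and its signal runs through MyD88 to NF-kB and to the MAP kinases ERK, JNK and p38. p38α, the product of Mapk14, is known for its role in stabilising and translating inflammatory messages, partly through the kinase MK2 and the mRNA-destabilising protein tristetraprolin. In dendritic cells, which take up antigen and prime T cells, a first wave of transcripts encodes cytokines together with inhibitors that later end the response, and a later wave follows from the cytokines that were released.

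Levels are given as log2(signal + 16) after quantile normalization, 1 probe set per gene, and changes as KO 4 h minus KO 2 h on that scale, which understates the change of low genes. In all, 12791 genes were tested with limma on all 12 arrays. The 2 KO arrays of one time correlated with r = 0.987 at 2 h, then 0.989 at 4 h across these genes, against 0.976 to 0.978 between the times. Genes are not independent replicates. Over the 12 arrays the trimmed mean of the deposited signal varied between 66.6 and 119, so the deposited values shared no common scale. Dendritic cell markers were present: across the 4 arrays the levels of Flt3, the receptor that drives dendritic cell growth, ran from 9.80 to 10.04, those of the dendritic cell transcription factor Zbtb46 from 9.03 to 9.28 and those of the chemokine receptor Ccr7 from 12.65 to 12.94. Mapk14, the targeted gene, gave no sign of a loss in the arrays labelled KO. Its brightest probe set read 8.05 and 8.07 at 2 h, then 8.04 and 7.93 at 4 h on KO arrays, against 7.76 and 7.44, then 7.56 and 7.75, on WT arrays. It did not pass the test between 2 and 4 h (-0.08 ± 0.13, SE, adjusted p = 0.76). The sources used here do not place the deleted part against these probe sets, so KO stands for the label throughout.

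Between 2 and 4 h, 826 genes rose and 927 fell in KO cells (13.7% of the genes tested, 6.46% higher and 7.25% lower, at adjusted p under 0.05). The changes were mostly below 2-fold: 43 genes (0.336%) rose and 62 (0.485%) fell by at least that much. The transcript of Ifng, the cytokine interferon gamma made chiefly by lymphocytes, rose most, and that of Uba6, an enzyme that activates ubiquitin and the ubiquitin-like protein FAT10, fell most. The split depended on scale. On the deposited scale the median of all genes lay 0.20 higher at 4 h, and 260 genes were called higher and 43 lower, so that 85.8% of calls were higher against 47.1% here. Of the calls among the genes chosen by the naming rule, 55 kept their call on that scale, 78 lost it and 7 turned their sign. Trimmed-mean scaling gave 820 and 890. The count of calls was 905 without KO 4 h B, 1009 without KO 2 h B, 1118 without KO 2 h A and 1160 without KO 4 h A.

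**Figure D1:**
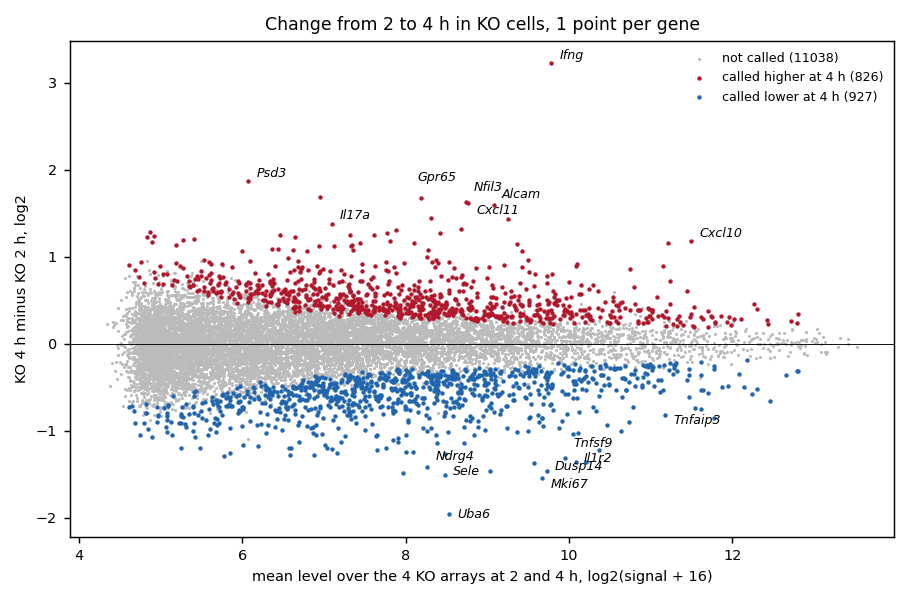
Change from 2 to 4 h in KO cells (vertical axis, log2) against the mean level over the 4 KO arrays (horizontal axis, log2(signal + 16)), 1 point per gene tested, coloured where called. Ifng stands alone at 3.22, Uba6 lies lowest at -1.96, and the band of genes not called is wider at low levels.

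Read against 0 h, most of the called genes fell into 1 of several classes, and 361 of the 1753 fell into none. Over all genes tested, 7.85% were called higher and 11.7% lower at 2 h than at 0 h, and 7.24% and 10.9% at 4 h. Decaying genes, raised at 2 h and lower again at 4 h, numbered 377, and 248 of them were no longer called above 0 h at 4 h while 129 still were. Another 351 genes were lasting, that is raised over 0 h at both times with no call between them. Late genes, which rose after 2 h from no call over 0 h, numbered 214, and 62 more rose by 2 h and again by 4 h. Rebounding genes, which fell by 2 h and rose after it, numbered 371, and 307 of them were no longer called below 0 h at 4 h. Some of these were called above 0 h at 4 h and stand among the late genes too. Late loss, a fall after 2 h to below 0 h with no fall before it, counted 306 genes, 15 of which had risen first and stand among the decaying genes too. Another 88 genes fell at both steps. The 3 contrasts share arrays, and the counts follow from the rule alone. The direction of each class was set by KO means, while the WT arrays shared the normalization, the filter and the estimate of spread. The WT means changed in the same direction from 2 to 4 h for 360 of 377 decaying, 209 of 214 late, 359 of 371 rebounding and 291 of 306 late-loss genes. These shares were near the 94.5% of all KO calls, against 69.3% of all genes tested. Without KO 4 h B the late genes numbered 96 and the decaying genes 245.

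Decaying transcripts were led by Uba6. It read 7.54 and 7.28 at 0 h, 9.60 and 9.42 at 2 h, then 7.54 and 7.57 at 4 h on KO arrays. Both 2 h arrays stood above all others and the 4 h arrays were back at the 0 h level, a 3.88-fold fall (-1.96 ± 0.10, SE, adjusted p = 2.8e-08). Its 4 probe sets above the filter all fell. Mki67, the proliferation marker Ki-67, went from 6.84 and 6.78 at 0 h to 10.42 and 10.46 at 2 h, then 8.82 and 8.98 at 4 h. It fell 2.90-fold (-1.54 ± 0.09, adjusted p = 4.1e-08) and stayed 4.27-fold above 0 h. Other cell cycle genes did not share this course: of 37 tested genes of S phase and mitosis, Mki67 and the centromere histone Cenpa fell (-0.74 ± 0.16) and Cdc20, an activator of the anaphase-promoting complex, rose (0.67 ± 0.19), with a median change of 0.09. The Cenpa call was lost without KO 2 h A or KO 4 h A, and the Cdc20 call without KO 2 h A, KO 2 h B or KO 4 h B. The Cdc20 call sits on a probe set whose suffix marks cross-hybridisation, and the probe set without that suffix read 0.03. With the mean of all probe sets the value was -0.07 for Cenpa and 0.24 for Cdc20, neither called. H1f2, the linker histone H1.2, fell from 9.72 and 9.80 to 8.41 and 8.19, below its 0 h arrays at 9.07 and 8.94.

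Sele, the endothelial adhesion molecule E-selectin, read 9.26 and 9.21 at 2 h, then 7.63 and 7.83 at 4 h, against 7.36 and 7.54 at 0 h. The times did not overlap, and the fall was 2.84-fold (-1.50 ± 0.11, adjusted p = 4.9e-07). Thbs1, the matrix protein thrombospondin-1, fell by 1.37 ± 0.13 on the log2 scale, and Adamts1, a metalloprotease of the matrix, fell by 1.28 ± 0.17. Of 14 tested stromal and endothelial markers 2 fell, none rose and 12 were not called. The share called (14.3%) was near the 13.7% over all genes tested, and on the deposited scale none was called. The falls were those of Cdh5 (-0.59) and Pecam1 (-0.55), both junction proteins of endothelium. The summed signal of the listed markers was 1772 to 1881 at 2 h, then 1614 to 1726 at 4 h. The part of such cells in the Sele result was not tested. The Pecam1 call was lost without KO 2 h A, KO 2 h B or KO 4 h A. The Sele promoter is printed because it carries letters of an AP-1 and of a GAS element beside the start of a gene whose 2 h arrays stood above those of both other times. It lies on chromosome 1 (RefSeq, GRCm38.p6, chr1:164047984-164048283, plus strand, 250 bases before to 50 after the start), and capitals mark TGANTCA, the AP-1 letters, beginning 73 bases before the start, and TTCNNNGAA, the GAS letters bound by STAT dimers, beginning 140 bases before it.
Sele: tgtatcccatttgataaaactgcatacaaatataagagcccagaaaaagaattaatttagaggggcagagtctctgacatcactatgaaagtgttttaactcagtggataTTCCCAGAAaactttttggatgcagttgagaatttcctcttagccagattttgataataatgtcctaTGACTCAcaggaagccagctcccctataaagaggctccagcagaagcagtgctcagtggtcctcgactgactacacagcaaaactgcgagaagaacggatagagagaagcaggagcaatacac

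Inhibitors of signalling were among the falls. Dusp14, a phosphatase of MAP kinases, read 6.74 and 6.65 at 0 h, 10.50 and 10.42 at 2 h, then 9.04 and 8.95 at 4 h. It fell 2.76-fold (-1.46 ± 0.08, adjusted p = 4.1e-08) with no overlap between the times and remained 4.91-fold above 0 h. Of 15 tested MAP kinase phosphatases 5 fell and 1 rose, with a median change of -0.23 against 0.0041 over all genes, and on the deposited scale 1 fell and 1 rose. Beside Dusp14 the falls were those of Dusp2 (-1.03 ± 0.10), a nuclear phosphatase of ERK and p38, Dusp8 (-0.94 ± 0.21), Dusp6 (-0.73 ± 0.11), a cytoplasmic phosphatase of ERK, and Dusp3 (-0.65 ± 0.16). Dusp6 and Dusp3 had not risen by 2 h and ended below 0 h. Dusp5, a nuclear phosphatase of ERK, had fallen by 0.70 at 2 h and rose by 0.50 ± 0.09. Dusp1, the p38 and JNK phosphatase of the early response, read 10.75 and 10.74, then 10.71 and 10.67, and did not pass the test (-0.05 ± 0.07, adjusted p = 0.65). The other 8 tested members, Dusp4, Dusp7, Dusp9, Dusp10, Dusp16, Dusp22, Dusp28 and Ptpn5, ran from -0.47 to 0.24 without a call. The Dusp8 and Dusp3 calls were each lost without KO 2 h A or KO 4 h A, and that of Dusp8 also with the mean of its probe sets (-0.24).

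Some receptors and enzymes that damp the response fell as well. Il1r2, the decoy receptor for interleukin-1, fell from 10.84 and 10.69 to 9.31 and 9.51, against 8.68 and 8.48 at 0 h. This 2.56-fold fall (-1.36 ± 0.10, adjusted p = 4.9e-07) left it between its 0 h and 2 h arrays. Tnfaip3, which encodes the ubiquitin-editing enzyme A20 that shuts off NF-kB, read 11.63 and 11.54, then 10.81 and 10.72 (-0.82 ± 0.09). Socs3, an inhibitor of IL-6 family signalling, fell by 0.56 ± 0.11, whereas Socs1, an inhibitor of interferon signalling, rose from 6.76 and 6.80 to 7.65 and 7.61 (0.85 ± 0.16). In the list of restraints of TLR signalling, which holds several of the phosphatases too, 10 of 39 tested members fell and 7 rose (median -0.11; on the deposited scale 0.05, or -0.15 relative to all genes, with 2 lower and 5 higher).

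Among early NF-kB targets and immediate-early genes more fell than rose after quantile normalization, but not on the deposited scale. Of 32 tested NF-kB targets and regulators 12 fell and 4 rose (median -0.11). On the deposited scale that median was 0.14, which is -0.06 relative to all genes there, with 1 member higher and 0 lower. Bcl2l1, the survival factor BCL-XL, read 9.95 and 9.79 at 2 h, then 8.81 and 8.91 at 4 h, over 7.58 and 7.40 at 0 h, so it fell 2.01-fold (-1.01 ± 0.09, adjusted p = 3.6e-06) with most of its rise kept. Ier3, an early-response gene that limits cell death, fell from 11.95 and 12.03 to 11.27 and 11.22 and so returned to its 0 h arrays (11.20 and 11.26). Of 40 tested AP-1 and immediate-early genes 15 fell and 8 rose (median -0.23, or -0.22 relative to all genes on the deposited scale, where 5 rose and 1 fell). Nr4a1, an orphan nuclear receptor of the immediate-early response, read 8.42 and 8.30, then 7.15 and 7.18, against 7.13 and 7.08 at 0 h, a full return (-1.20 ± 0.10, adjusted p = 1.7e-06). Members that rose did so from a trough: Nfil3, a repressor of the bZIP family, and Batf3, a factor needed for cross-presenting dendritic cells, are described with the rebounding genes.

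Ligands for T cells split between decay and persistence. Tnfsf9, the co-stimulatory 4-1BB ligand, read 7.43 and 7.35 at 0 h, 10.61 and 10.61 at 2 h, then 9.38 and 9.21 at 4 h. It fell 2.48-fold (-1.31 ± 0.09, adjusted p = 2.8e-07), and the 4 h arrays lay below both 2 h arrays. Tnfsf4, the ligand of OX40, fell by 0.58 ± 0.12, a call lost without KO 2 h A. Cd70, the ligand of CD27, read 11.21 and 11.10, then 10.97 and 10.85, and was not called (-0.25 ± 0.12, adjusted p = 0.21). Among 29 tested genes of the TNF superfamily 6 fell and 2 rose (1 and 2 on the deposited scale), and among 28 genes of co-stimulation and maturation 5 fell and 10 rose (median 0.18). Pdcd1lg2, the inhibitory ligand PD-L2, rose by 0.61 ± 0.08, and Fas, the death receptor, by 0.69 ± 0.12. Tnfrsf13c, the BAFF receptor of B cells, fell by 1.06 ± 0.16.

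**Figure D2:**
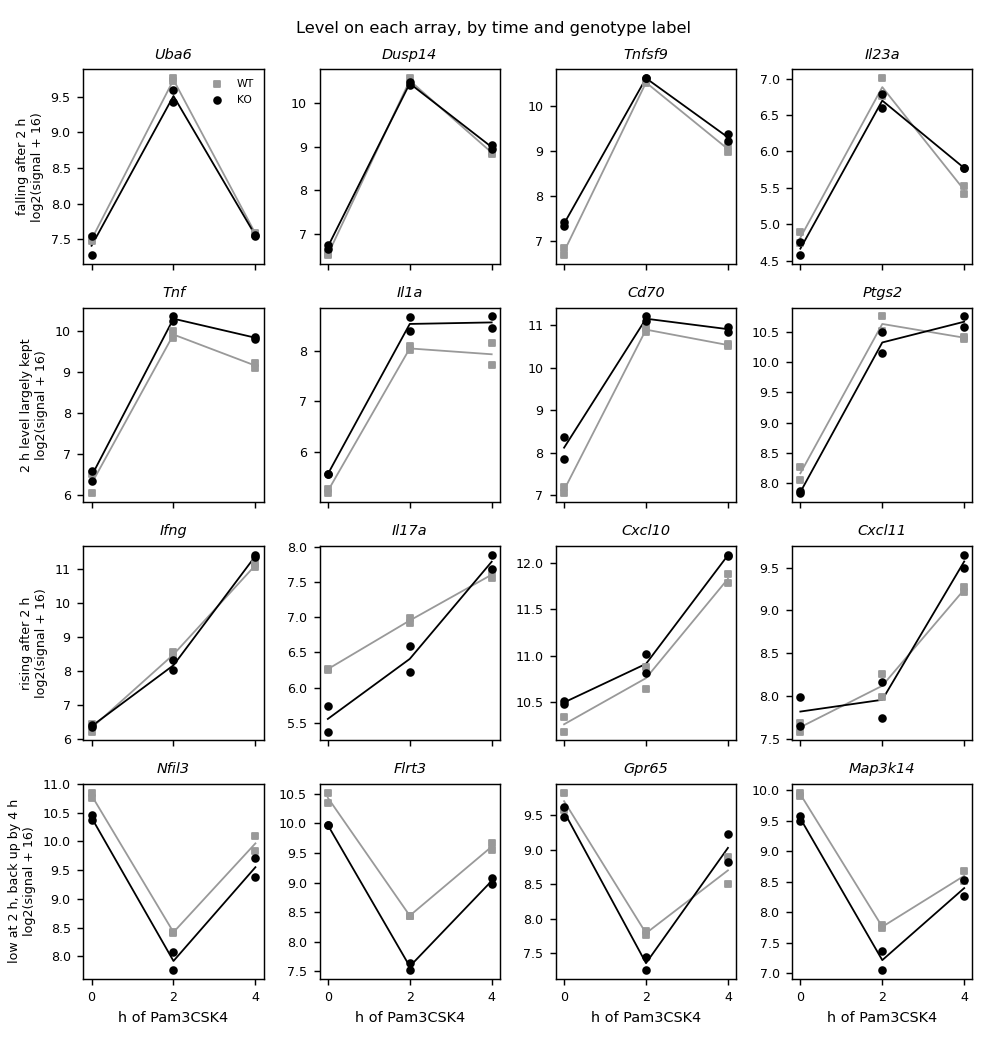
Level on each array (vertical axes, log2(signal + 16), scaled per gene) against hours of Pam3CSK4 for 16 genes, with KO arrays as black circles, WT arrays as grey squares and lines through the means of 2 arrays. The top row falls after 2 h, the second row keeps most of its 2 h level, the third rises after 2 h, and the bottom row is lowest at 2 h and higher at 4 h under both labels.

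Lasting genes included some of the strongest cytokine and enzyme transcripts of the response. Il1a, the cytokine interleukin-1α, read 5.56 and 5.56 at 0 h, 8.68 and 8.39 at 2 h, then 8.44 and 8.68 at 4 h. The arrays of the later times overlapped and the change was 0.03 ± 0.15 (adjusted p = 0.92). Ptgs2, the inducible cyclooxygenase COX-2 of prostaglandin synthesis, went from 10.15 and 10.49 to 10.75 and 10.57, with both 4 h arrays above both 2 h arrays but without a call (0.34 ± 0.11, adjusted p = 0.058). Il12b, whose product p40 is a chain of both IL-12 and IL-23, read 11.36 and 11.33, then 11.44 and 11, and stood 1.75 above 0 h at 4 h. The smallest rises over 0 h at 4 h among lasting genes were those of Arpc2, a subunit of the Arp2/3 actin complex (0.17), the adaptor Samsn1 (0.22) and the splicing factor Rbm39 (0.23).

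Of 19 tested cytokines of the list that polarises helper T cells, 5 rose and 4 fell after 2 h in KO cells, and 10 were not called (median 0.03). Il23a, the p19 subunit of IL-23, read 4.75 and 4.57 at 0 h, 6.60 and 6.79 at 2 h, then 5.77 and 5.77 at 4 h. It fell 1.90-fold (-0.93 ± 0.17, adjusted p = 0.0016) and kept a level above 0 h. Subunits of related cytokines differed from it and from each other, and Il12b was not called. Ebi3, shared by IL-27 and IL-35, rose from 10.84 and 10.82 to 11.15 and 11.14 (0.32 ± 0.07, adjusted p = 0.0049). Il12a, the p35 subunit of IL-12 and IL-35, rose from 5.78 and 6.13 to 6.43 and 6.64 (0.58 ± 0.17, adjusted p = 0.037), a call lost without KO 2 h A, KO 4 h A, KO 4 h B, WT 4 h A or WT 4 h B, and with trimmed-mean scaling. Il6, a cytokine of TH17 differentiation, moved little, from 11.79 and 11.83 to 12.09 and 12.03 (0.25 ± 0.06, adjusted p = 0.011), and its call was lost without KO 2 h A or KO 4 h A and with trimmed-mean scaling. Tnf, the cytokine tumour necrosis factor, fell from 10.23 and 10.34 to 9.85 and 9.80 (-0.46 ± 0.13, adjusted p = 0.026), a call lost without any 1 of the 4 arrays compared, and stayed 10.2-fold above 0 h.

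Il10, which restrains dendritic cells, read 6.5 and 6.30 at 2 h, then 5.97 and 5.86 at 4 h, against 5.46 and 4.98 at 0 h, and missed the threshold (-0.48 ± 0.18, adjusted p = 0.098). Tgfb2 fell by 0.50 ± 0.15, a call lost without any 1 of the 4 arrays compared, and Tgfb1 was not called (-0.35). Il1b, already bright at 0 h (10.64 and 10.54), changed by 0.08 ± 0.08 without a call. Il15 (0.24), Il18 (0.42), Tslp (0.22), Il33 (-0.09) and Ifnb1 (-0.49) were not called either. Il4, Il13, Il21 and Tgfb3 lay below the filter and were not tested.

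Late transcripts were led by Ifng. It read 6.39 and 6.35 at 0 h, 8.02 and 8.31 at 2 h, then 11.35 and 11.43 at 4 h. Each time stood clear of the others, and after 2 h it rose 9.32-fold (3.22 ± 0.11, adjusted p = 8.1e-11), still rising by the rule because it was already called over 0 h at 2 h. Il17a, the signature cytokine of TH17 and other IL-17-producing lymphocytes, rose from 6.22 and 6.60 to 7.89 and 7.68 (1.38 ± 0.15, adjusted p = 2.4e-05). Of 26 tested genes of the lymphocytes that make both cytokines, 4 rose and 2 fell, beside 6.46% higher and 7.25% lower over all genes tested. The median change of this list was 0.01, against 0.0041 over all genes, so the list as a whole did not shift. On the deposited scale 3 rose and none fell. Tbx21, the transcription factor T-bet that drives Ifng, rose by 0.84 ± 0.16, the cytotoxic protease Gzmb by 0.68 ± 0.10 and Ncr1, the natural killer receptor NKp46, from 5.76 and 5.88 to 6.87 and 6.95 (1.09 ± 0.19). These cultures hold RNA of other cells beside dendritic cells, and in bulk samples fewer cells of a type and less RNA per cell cannot be told apart. Of the 12 tested NK cell markers (median 0.02) Tbx21, Gzmb and Ncr1 were the 3 that rose, and 2 fell. Their summed signal was 2725 to 2896 at 2 h, then 3217 to 3284 at 4 h, against 2873 to 3094 at 0 h. The 12 T cell markers (1 higher, none lower) summed to 1845 to 1865, then 2073 to 2097, below 2870 to 3028 at 0 h. Bright genes weigh most in such sums, and the only T cell call was Il7r (9.54 and 9.47, then 9.87 and 9.88). Cd4, a defining marker of helper T cells, lay below the filter, and the part of these cells in the Ifng result was not tested.

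Most of the listed genes known to be induced by interferon gamma rose in the same interval. Of 28 tested, 18 rose and 2 fell, with a median change of 0.40, and on the deposited scale 12 rose and none fell (median 0.68, or 0.48 relative to all genes there). Cxcl10, a chemokine for CXCR3-bearing T and NK cells, read 10.51 and 10.47 at 0 h, 10.81 and 11.01 at 2 h, then 12.10 and 12.08 at 4 h. Its rise after 2 h was 2.27-fold (1.18 ± 0.09, adjusted p = 4.9e-07), and the 4 h arrays lay above all earlier ones. Cxcl9, of the same receptor, rose from 10.48 and 10.79 to 11.78 and 11.81 (1.16 ± 0.12), and Cxcl11, the third CXCR3 ligand, from 7.75 and 8.17 to 9.65 and 9.49 (1.61 ± 0.14). Ifi47, an immunity-related GTPase that also stands in the type I interferon list, rose by 0.60 ± 0.07. Irf8, a factor of dendritic cell identity, rose by 0.20 ± 0.06, a call lost without any 1 of the 4 arrays compared, KO 0 h A, KO 0 h B, WT 2 h A or WT 2 h B. The falls were those of Icam1, an adhesion molecule that is also an NF-kB target (-0.49 ± 0.07), and Fcgr1, the high-affinity Fc receptor (-0.93 ± 0.14). With the mean of all probe sets Fcgr1 (-0.44) and Irf8 (0.13) were not called. Of 38 tested type I interferon genes, some of which stand in both lists, 8 rose and 4 fell (median 0.11). The risers included Trim21 (0.73 ± 0.10), an intracellular antibody receptor, and the antiviral GTPase Mx1 (0.48 ± 0.08).

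Calhm6, a channel-forming membrane protein known as an interferon-induced gene of myeloid cells, read 8.0 and 8.18 at 0 h, 8.45 and 8.62 at 2 h, then 9.96 and 9.99 at 4 h. It rose 2.71-fold (1.44 ± 0.14, adjusted p = 5.9e-06) with no overlap. Its promoter and that of Ifng are printed because both genes rose late, Ifng by more than any other gene. In the Calhm6 promoter (RefSeq, GRCm38.p6, chr10:34127923-34128222, minus strand) capitals mark the letters of an interferon-stimulated response element (ISRE), a pair of GAAA repeats spaced by NN, beginning 64 bases before the start. In that of Ifng (chr10:118440796-118441095, plus strand) they mark the GAS letters TTCNNNGAA, beginning 249 bases before it.
Calhm6: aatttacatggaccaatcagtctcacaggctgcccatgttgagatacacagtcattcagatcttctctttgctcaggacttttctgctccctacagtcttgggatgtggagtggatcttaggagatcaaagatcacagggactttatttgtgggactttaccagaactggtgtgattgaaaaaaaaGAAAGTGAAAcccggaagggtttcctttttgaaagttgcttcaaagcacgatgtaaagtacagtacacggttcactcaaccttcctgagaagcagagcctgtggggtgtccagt
Ifng: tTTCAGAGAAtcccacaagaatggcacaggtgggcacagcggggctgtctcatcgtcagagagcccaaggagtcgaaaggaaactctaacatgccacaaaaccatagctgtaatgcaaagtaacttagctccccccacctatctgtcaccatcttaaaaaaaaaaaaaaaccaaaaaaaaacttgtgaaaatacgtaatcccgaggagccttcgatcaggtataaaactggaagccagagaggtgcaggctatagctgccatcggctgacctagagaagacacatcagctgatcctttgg

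Promoters were searched on both strands for 7 motifs in the same window, and matches of different motifs may overlap. ISRE letters stood in 7 of 13 promoters (53.8%, 95% Wilson interval 29.1 to 76.8, counting error only) of the 12 interferon-gamma-induced genes that rose and have a promoter in the table, and in 7.37% of promoters of late genes, against 3.07% over all genes tested. That list holds genes already known to be induced by interferon gamma. Its members that did not rise were not counted apart, so the share of 53.8% cannot be tied to the rise. In decaying genes the NF-kB site kB stood in 16.9% of 397 promoters of 299 genes (13.5 to 20.9) against 10.4%. The serum response element CArG stood in 4.03% against 1.29%, and the cyclic AMP response element TGACGTCA in 4.03% against 2.84%. Promoters of 1 gene were counted apart and can overlap, so both intervals may be too narrow. AP-1 letters stood in 6.55% against 5.72% and the E-box CACGTG in 8.31% against 9.56%. Decaying genes were by rule raised at 2 h, and promoters of lasting genes, raised as well, were not counted. The shares in decaying genes therefore cannot be tied to the fall. GAS letters, marked in several of the promoters printed here, had shares near that over all genes tested (6.82%). They stood in 7.56% of promoters of decaying genes and 5.79% of those of late genes. Of promoters of rebounding genes 12.7% held kB letters. Over all promoters in the table the shares were 3.44% for ISRE and 8.46% for kB. A match is only a match of letters. The Dusp14 promoter, of the steepest fall among the phosphatases, held none of the kB, AP-1, CRE or CArG letters and held GAS letters beginning 200 bases before the start. It is printed with those in capitals (chr11:84068308-84068607, minus strand).
Dusp14: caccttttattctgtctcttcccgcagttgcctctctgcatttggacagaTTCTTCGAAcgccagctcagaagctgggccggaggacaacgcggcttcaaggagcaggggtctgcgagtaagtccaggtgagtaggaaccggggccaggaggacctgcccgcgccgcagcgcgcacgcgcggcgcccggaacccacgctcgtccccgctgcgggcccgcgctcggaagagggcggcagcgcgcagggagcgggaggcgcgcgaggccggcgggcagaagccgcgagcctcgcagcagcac

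Other late genes had no place in the interferon lists. Psd3, an exchange factor for the GTPase ARF6, rose from 5.60 and 4.67 to 6.99 and 7.02 (1.87 ± 0.25, adjusted p = 0.00013), with 2 h arrays that differed widely. Gpr33, an orphan chemoattractant-like receptor, rose from 6.01 and 6.20 to 7.91 and 7.67 (1.68 ± 0.17). Alcam, the adhesion molecule CD166 that binds CD6 on T cells, read 7.72 and 7.58 at 0 h, 8.28 and 8.29 at 2 h, then 9.97 and 9.78 at 4 h. It rose at each step, by 0.64 and then by 1.59 ± 0.09 (adjusted p = 4.1e-08). Of its 5 probe sets 4 rose and the dimmest read -0.42 without a call. Arhgap26 rose by 1.30 ± 0.13 and Umad1 by 1.32 ± 0.10. Among chemokines 7 of 26 rose and 4 fell. Ccl17, which draws CCR4-bearing T cells, rose from 10.33 and 10.31 to 11.17 and 11.19 (0.86 ± 0.07), whereas Cxcl2, a neutrophil chemokine, fell from 12.23 and 12.19 to 11.44 and 11.27 (-0.86 ± 0.07). S100a8, an alarmin of neutrophils and monocytes, rose from 6.60 and 6.80 to 7.91 and 7.98 (1.25 ± 0.14). Its partner S100a9 rose by 0.70 ± 0.21, a call lost without KO 2 h A, KO 4 h A, KO 4 h B, WT 4 h A or WT 4 h B, and with trimmed-mean scaling. Of 10 tested neutrophil markers these were the only calls, and the summed signal was 2358 to 2943 at 2 h, then 3092 to 3128 at 4 h.

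Rebounding genes were low at 2 h and came back. Nfil3 read 10.37 and 10.45 at 0 h, 7.77 and 8.07 at 2 h, then 9.39 and 9.71 at 4 h. It recovered 3.10-fold (1.63 ± 0.12, adjusted p = 4.5e-07) and still lay 0.86 below 0 h. Gpr65, a proton-sensing receptor of immune cells, went from 9.62 and 9.47 to 7.26 and 7.45 and then to 8.83 and 9.22, so its 4 h arrays lay between those of the other times (1.67 ± 0.14, adjusted p = 2.2e-06). Flrt3, a cell-surface ligand of latrophilins and UNC5 receptors, rose by 1.44 ± 0.08 after a fall of 2.39, and both of its probe sets moved alike. Map3k14, the kinase NIK of the noncanonical NF-kB pathway, read 9.58 and 9.49, then 7.37 and 7.06, then 8.26 and 8.53 (1.18 ± 0.11, adjusted p = 6.4e-06). Zc3h12d, an RNA-binding protein of the Regnase family that degrades cytokine messages, rebounded in full, from 7.74 and 7.83 to 8.99 and 9.12 over 8.94 and 8.77 at 0 h (1.27 ± 0.11). Batf3 did likewise, from 9.10 and 9.09 to 9.89 and 9.96 over 9.92 and 9.86. Pmaip1, the pro-death BCL2 family member NOXA, rose by 0.88 ± 0.08, in contrast to Bcl2l1 and to Bcl2l11, the pro-death BIM (-0.53 ± 0.08).

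Proteins that act on mRNA decay did not move as one group. Of 29 tested, 4 rose and 6 fell (median 0.07), beside 6.46% higher and 7.25% lower over all genes tested. On the deposited scale 1 rose and none fell. Zfp36, which encodes tristetraprolin, read 10.49 and 10.51 at 0 h, 9.51 and 9.60 at 2 h, then 10 and 9.87 at 4 h, a partial return (0.38 ± 0.07, adjusted p = 0.0027). Elavl1, the stabilising protein HuR, rose by 0.48 ± 0.08 to 9.47 and 9.56. Dcp1a, of the decapping complex, rose by 0.35 ± 0.11, a call lost without any 1 of the arrays of either label but WT 4 h A and WT 4 h B. Btg2, an antiproliferative cofactor of the CCR4-NOT deadenylase, fell from 9.34 and 9.59 to 8.48 and 8.47 (-0.99 ± 0.13, adjusted p = 0.00015). Ago2, the slicer of RNA interference (-0.56 ± 0.08), Zfp36l2 (-0.54 ± 0.11), a relative of tristetraprolin, and the antiproliferative genes Tob2 (-0.44) and Tob1 (-0.38) fell too. The Tob2 call was lost without KO 2 h A or KO 4 h B, and that of Tob1 without KO 2 h B, KO 4 h A or KO 4 h B. With the mean of all probe sets the value was 0.04 for Elavl1 and -0.06 for Zfp36l2, neither called, and Dcp1a (0.04), Tob1 (-0.32) and Zc3h12a (-0.38) were not called either. Tob2 was not called without suffixed probe sets (-0.37). Zc3h12a, the nuclease Regnase-1, fell from 8.46 and 8.79 to 8.10 and 8.07 (-0.54 ± 0.17, adjusted p = 0.048), a call lost without KO 2 h B, KO 4 h A, KO 4 h B, WT 2 h A or WT 2 h B, and with the replicate letter as a block (adjusted p = 0.056). The other 19 ran from -0.23 to 0.32 without a call. Among 37 tested messages known to carry AU-rich elements 12 fell and 5 rose (median -0.13; on the deposited scale 0.16, or -0.05 relative to all genes). The fallers included Cxcl2, Il23a and Tnf, and Ifng rose.

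Other genes ended below their 0 h level. Ndrg4 read 9.80 and 9.95 at 0 h, 9.10 and 8.84 at 2 h, then 7.57 and 7.54 at 4 h, a fall at each step (-1.41 ± 0.09 in the second, adjusted p = 1.8e-07). Phlda1 had risen by 0.98 at 2 h and fell below its 0 h arrays, from 10.82 and 10.96 to 9.56 and 9.50 (-1.36 ± 0.08). Mxd4, a partner of MAX that opposes MYC, was level until 2 h (6.42 and 6.42) and dropped to 5.47 and 4.80 (-1.29 ± 0.19). Transcripts of B cells were also among the late losses. Of 14 tested B cell markers 4 fell and none rose (median -0.24), beside 7.25% lower and 6.46% higher over all genes tested. On the deposited scale 1 fell and none rose (median -0.04, or -0.24 relative to all genes there). The summed signal of the listed markers was 3005 to 3027 at 2 h, then 2644 to 2694 at 4 h. Cd79b, a signalling chain of the B cell receptor, read 7.61 and 7.81, then 6.60 and 6.4 (-1.21 ± 0.13, adjusted p = 2.0e-05), its partner Cd79a fell by 0.85 ± 0.17 and the scaffold Bank1 by 1.05 ± 0.13. Pax5, the B cell master regulator, lay below the filter. Among 16 tested macrophage and monocyte markers 5 fell and 1 rose. On the deposited scale none fell and 1 rose (median 0.07, or -0.13 relative to all genes there). The falls after quantile normalization included Csf1r, the receptor of macrophage growth factors (-0.54 ± 0.09), Fcgr1 and the lipopolysaccharide co-receptor Cd14 (-0.50 ± 0.10). Adgre1, which encodes F4/80, rose (0.84 ± 0.14). The markers' part in other results was not tested.

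Dendritic cell genes themselves went both ways. Of 17 tested conventional dendritic cell markers 4 rose and 2 fell, and of 15 markers of migratory dendritic and Langerhans cells 7 rose and 1 fell. On the deposited scale 2 conventional and 4 migratory markers rose and none fell. Irf4, the factor of dendritic cells that migrate and present on MHC class II, read 7.69 and 7.80 at 0 h, 9.98 and 9.90 at 2 h, then 9.17 and 9.02 at 4 h (-0.84 ± 0.10, adjusted p = 3.8e-05). Sirpa, the inhibitory receptor for CD47, returned to its 0 h level, from 10.18 and 9.97 to 9.24 and 9.11 against 9.14 and 9.13. Irf4 and Sirpa were the 2 conventional markers that fell, while those that rose included Batf3 and Irf8. Epcam, an adhesion molecule of Langerhans cells, was the only migratory marker that fell (-0.53 ± 0.10), and Ccl17 was among those that rose. In the MHC class II pathway 1 of 12 tested members was called: H2-Ob, a subunit of the peptide-loading inhibitor H2-O, fell from 6.30 and 6.05 to 5.29 and 5.25 (-0.91 ± 0.15).

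In the list of cholesterol export and liver X receptor targets 5 of 15 tested members fell and none rose (median -0.29), beside 7.25% lower over all genes tested. Abca1, the cholesterol exporter, read 8.76 and 8.76 at 2 h, then 7.89 and 7.63 at 4 h, below its 0 h arrays at 8.35 and 8.53 (-1.0 ± 0.11, adjusted p = 3.3e-05). Mylip, the ligase that degrades the LDL receptor, fell by 0.70 ± 0.13 and the lysosomal lipase Lipa by 0.55 ± 0.10. On the deposited scale the median of this list was 0.0009, which is -0.20 relative to all genes there, with none of its members called. Lipa was not called without suffixed probe sets (-0.48). In the list of cholesterol synthesis and uptake 2 of 20 rose and none fell, a share near the 6.46% higher over all genes, and none was called on the deposited scale. The calls were Hmgcs1 (0.25 ± 0.06) and Fdps (0.33 ± 0.08), enzymes of the mevalonate pathway, both lost without KO 2 h B or KO 4 h B and Hmgcs1 also without KO 2 h A and with trimmed-mean scaling. With the mean of all probe sets Fdps read 0.06 and was not called. Of 39 tested genes of Myc and ribosome biogenesis 10 rose and 2 fell (median 0.21), with Wdr12 (0.82 ± 0.16), Nolc1 (0.77 ± 0.11) and Mybbp1a (0.52 ± 0.09), all nucleolar, among them, of which Wdr12 lost its call without KO 4 h B. With the mean of all probe sets Wdr12 (0.36) and Mybbp1a (0.25) were not called. The median change of 27 tested cytosolic ribosomal proteins was 0.04. The unfolded protein and integrated stress response had 8 of 35 members lower and 4 higher (median -0.05, but 0.03 relative to all genes on the deposited scale, where 1 rose and 0 fell), Sel1l of the degradation complex (-0.53 ± 0.08) and Herpud1 (-0.51 ± 0.08) being among the falls.

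**Figure D3:**
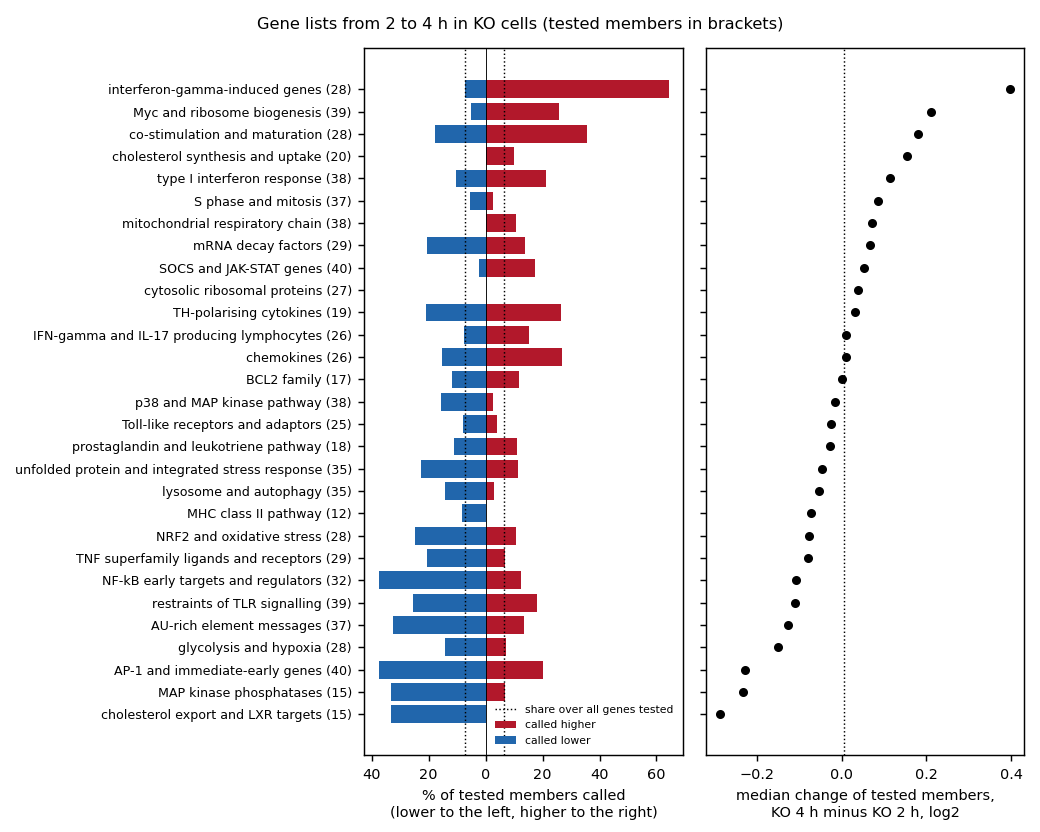
For each list of known genes, the share of tested members called lower (left) or higher (right) from 2 to 4 h in KO cells, beside the share over all genes tested (dotted), and in the second panel the median change (log2). Interferon-gamma-induced genes lie at the top with 18 of 28 higher and a median of 0.40, and cholesterol export and liver X receptor targets at the bottom with a median of -0.29.

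Because a chance high reading on the 2 h arrays makes a fall to 4 h more likely, the early genes were also chosen by the WT contrast of 2 h with 0 h. Its means come from WT arrays, but its normalization, filter and estimate of spread are those of all 12 arrays, so the choice is not fully independent of the KO arrays. Of 236 genes (1.85% of those tested) called at least 2-fold higher at 2 h than at 0 h in WT cells, 120 (50.8%) fell and 25 (10.6%) rose from 2 to 4 h in KO cells, with a median change of -0.40. Over all genes tested the shares were 7.25% and 6.46%. In KO cells 195 of the 236 were still called above 0 h at 4 h. Of 83 genes (0.649%) at least 2-fold lower at 2 h in WT cells, 36 (43.4%) rose and 2 (2.41%) fell in KO cells (median 0.33). The count of falls among early genes ran from 97 to 141 with 1 array left out.

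**Figure D4:**
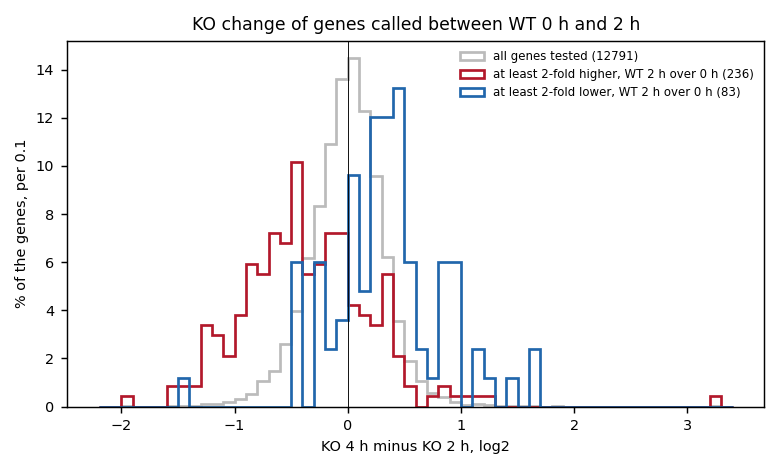
Distribution of the KO 4 h minus KO 2 h change (horizontal axis, log2) as the share of genes per 0.1 (vertical axis, %) for all genes tested and for genes called between the WT times as at least 2-fold higher or lower at 2 h. Early genes lie mostly below 0 with a median of -0.40, genes lowered at 2 h mostly above it with a median of 0.33, and the bar beyond 3 is Ifng.

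The same interval in WT cells, measured on other arrays, gave 681 genes higher and 736 lower (11.1% of the genes tested, 5.32% and 5.75%). Of the KO calls 51.7%, and of the WT calls 63.9%, were called under both labels, 906 genes in all, 904 of them in the same direction. The sign was shared by 1657 of the 1753 KO calls (94.5%) and by 69.3% of all genes. Uba6 fell 3.88-fold in KO and 4.46-fold in WT cells, Ifng rose 9.32-fold and 6.20-fold, and Il17a rose by 1.38 and by 0.65 on the log2 scale. None of these differences between the labels was called: for Ifng it was 0.59 ± 0.15 (unadjusted p = 0.0014, adjusted p = 0.49), for Il17a 0.73 ± 0.22 (adjusted p = 0.59) and for Il23a, with -0.93 in KO and -1.41 in WT, 0.49 ± 0.24 (adjusted p = 0.70). Across all genes limma called 0 differences of the change, with 917 at an unadjusted p under 0.05 and a smallest adjusted p of 0.123, and 1 gene without KO 2 h B or without WT 2 h B. On simulated data with this design 65.7% of differences of 1 and 19.4% of differences of 0.5 were recovered. The simulation gave genes of like level the same spread, unlike the data, so these shares may be too high. Emx1 differed by 2.10 ± 0.35 (limma adjusted p = 0.12) without a call, so large differences could be missed as well as small ones.

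**Figure D5:**
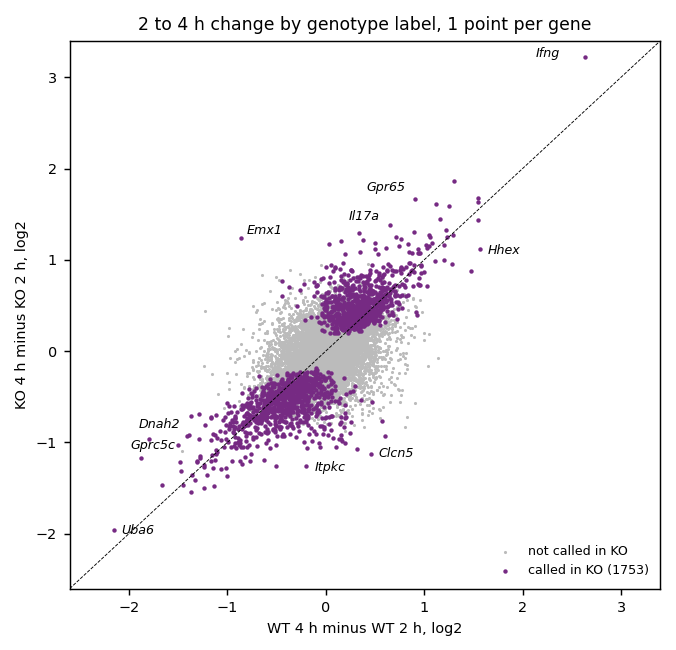
KO 4 h minus KO 2 h (vertical axis, log2) against WT 4 h minus WT 2 h (horizontal axis, log2), 1 point per gene tested, purple where called in KO, with a dashed line where both are equal. Points follow the line, with 1657 of 1753 KO calls of the same sign in WT, and Emx1, Clcn5 and Itpkc are among those farthest from it.

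The smallest p-values for a difference between the labels belonged to genes outside the inflammatory lists. Dnah2, an axonemal dynein chain, read 8.77 and 8.82, then 7.86 and 7.80 in KO cells and 10.51 and 10.18, then 8.55 and 8.54 in WT cells, a fall under both labels that differed by 0.83 ± 0.14 (adjusted p = 0.12). Emx1, a homeobox factor, rose by 1.24 in KO and fell by 0.86 in WT cells, at levels of 4.20 to 5.71 over all arrays against a filter level of 4.73, and its KO call was lost without KO 4 h B. Itpkc, a kinase of inositol trisphosphate, read 7.87 and 7.70, then 6.35 and 6.70 in KO cells and 7.36 and 7.27, then 7.22 and 7.02 in WT cells (difference -1.06 ± 0.21, adjusted p = 0.28). Sirt2, a deacetylase, rose by 0.67 ± 0.13 in KO cells against -0.26 in WT cells. Arhgef3 fell by 1.01 in WT cells and read -0.24 without a call in KO cells. Clcn5, a chloride channel of endosomes, fell by 1.13 ± 0.19 in KO cells on a probe set whose suffix marks cross-hybridisation, and its brightest probe set without that suffix read 0.06. Emx1 and Eps8l2, an actin regulator, were the 2 genes called in opposite directions under the labels, the latter named after its values were seen (-0.56 and 0.47). None of these differences passed the adjusted threshold.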

How the data were processed

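RNA of all 12 samples was hybridised to 1-colour Affymetrix mouse arrays, 1 array per sample. The deposited values were linear intensities per probe set from MAS5, per the submitters' processing notes; no source used here gives their scaling target. The 45101 probe sets were quantile normalized together, 16 was added and log2 taken. Probe sets were named from the platform annotation (34958 with 1 symbol, 932 with several, 9211 with none), of which 34741 were matched to RefSeq by Entrez ID. Controls were left out, the brightest probe set stood for each of 18193 genes, and 5402 genes with a mean below the 40th percentile of probe sets were left out. Group means of the 6 groups were fitted in limma 3.58.1 (R 4.3.3) with eBayes (trend), on 6 residual and 9.13 prior degrees of freedom. Calls were at a Benjamini-Hochberg adjusted p under 0.05, two-sided, over the 12791 genes tested. Errors are standard errors of the fit, with n = 2 arrays in each group, and this small number limits precision. On simulated data 44.8%, 91.0% and 100% of changes of 0.5, 1 and 2 on the log2 scale were recovered between 2 and 4 h. The simulation changed 67, 67 and 66 genes by these sizes, far fewer than the 1753 called in the data. It also gave genes of like level the same spread, so the shares in the data may differ.

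Genes were named by rule: the 12 highest and 12 lowest called changes without overlap between the times, leaving out clone-like names, up to 3 called members per list by p, all cytokine, phosphatase and mRNA decay list members, the extremes of each class, Mapk14, and the 6 smallest p-values between labels. The members, 29 pathway lists and 9 marker lists were chosen with earlier results of these data known. Each result was recomputed without scaling between arrays, with scaling to a trimmed mean, with 1 or 64 in place of 16, and with other filters, probe set choices and thresholds, without the eBayes trend, with the replicate letter as a block, on the 4 arrays compared alone, and without each array in turn. Promoters are from RefSeq, GRCm38.p6.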

Additional observations from a re-analysis of the deposited data

How the results depend on the processing

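On the deposited scale the calls between 2 and 4 h in KO cells fell to 303 (260 higher, 43 lower), those in WT cells to 230, those of KO 4 h against 0 h to 853, decaying genes to 19, lasting to 95, late to 36, and early genes chosen in WT cells to 15 lower and 4 higher in KO cells. Requiring a 2-fold change as well gave 105 (43 and 62), 85 in WT cells, 295 and 258 against 0 h at 2 and 4 h, then 29, 87 and 19 for these classes, and 27 and 4 for the early genes. Without the eBayes trend there were 872 WT calls, 138 late genes and 14 early genes higher. Leaving out 1 array gave 905 to 1796 KO calls (366 to 856 higher, 539 to 940 lower), 714 to 1417 WT calls, 0 to 1 differences between labels, 1588 to 2488 and 1640 to 2328 calls against 0 h, 235 to 382 decaying, 254 to 341 lasting and 96 to 221 late genes, and 97 to 141 early genes lower and 14 to 26 higher. The sign turned on the deposited scale for Ccr9 (0.0134), Ddx5 (0.0003), Csrp1 (0.0572), Apaf1 (0.0413), Aldoa (0.0471), Gnas (0.0319), Ninj1 (0.0638) and Mapk14 (0.20), with the mean of probe sets for Trim35 (-0.0578), and without suffixed probe sets for Clcn5 (0.0573). The cause was not tested, beyond that the deposited values share no common scale and that a further condition of 2-fold change can leave only fewer calls. A and B of different groups did not deviate together (r from -0.042 to 0.105), and the letter as a replicate block gave 1847 KO calls (876 higher, 971 lower), 1493 WT calls and 0 differences between labels. Dim probe sets near the filter level limit what 2 arrays in each group can show.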

Other observations

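Other listed genes gave small numbers of calls, to be read beside 6.46% higher and 7.25% lower over all genes tested. In the p38 and MAP kinase pathway 1 of 38 tested members rose and 6 fell. Map4k4, a kinase upstream of JNK, fell from 10.21 and 10.10 to 9.21 and 9.21 in KO cells (-0.94 ± 0.07, SE, limma adjusted p = 4.9e-07), and Rps6ka5, the kinase MSK1 that p38 and ERK activate, fell from 8.62 and 8.71 to 7.83 and 7.85 (-0.82 ± 0.13). Neither gene's arrays overlapped between the times. Both fell in WT cells too, by 0.70 and 0.99 on the log2 scale. In the prostaglandin and leukotriene pathway 2 of 18 rose and 2 fell. Pla2g4a, the phospholipase that frees arachidonic acid, rose from 6.42 and 6.27 to 7.11 and 7.07 (0.74 ± 0.13), while Alox5ap, the activator of 5-lipoxygenase, fell by 0.50 ± 0.09 and Pla2g7, which inactivates platelet-activating factor, by 0.60 ± 0.09.

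In the NRF2 and oxidative stress list 7 of 28 tested members fell and 3 rose. Gpx4, which reduces lipid peroxides, fell from 11.02 and 11.08 to 10.61 and 10.52 (-0.48 ± 0.06), and Sod2, the mitochondrial superoxide dismutase, rose from 10.57 and 10.72 to 11.10 and 10.98 (0.39 ± 0.07). Shares near those over all genes were found in the mitochondrial respiratory chain, where 4 of 38 rose, among them Cycs, which encodes cytochrome c (0.40 ± 0.08), and Ndufv2 of complex I (0.36 ± 0.07), a call lost without KO 2 h A. The mean of all probe sets gave 0.15 for Sod2 and 0.21 for Cycs, neither called. In the glycolysis and hypoxia list 2 of 28 rose and 4 fell, with Pfkfb3, a regulator of glycolysis, at 0.38 ± 0.07 and the stress gene Ddit4 at -0.56 ± 0.08. On the deposited scale none was called in the NRF2 and respiratory chain lists, and 1 rose and none fell in both the p38 and the glycolysis list.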
